A study of Mus musculus with 2 samples.

Results

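The *Neurog*, *Neurod*, *Atoh1* and *Olig* genes encode transcription factors of the basic helix-loop-helix (bHLH) type. They are known for choosing between neuronal fates and for starting the oligodendrocyte lineage. The 9 genes described here (*Neurog1*, *Neurog2*, *Neurog3*, *Neurod1*, *Neurod4*, *Atoh1*, *Olig1*, *Olig2* and *Olig3*) were picked by symbol, with earlier results of these data known. All 9 are among the 29311 genes listed in the deposited tables. Their levels were compared between 2 RNA-seq samples of wild-type mouse cells, 1 of ES cells and 1 of forebrain at E10.5. The ES cells are of the line E14, which is derived from the inner cell mass of the blastocyst. They were grown without feeders on gelatin, in medium with serum and LIF. The forebrain was dissected from B6CBAF1/J embryos, with RNA taken from single embryos according to the methods of the study, whereas the labels give a number of cells, the same for both samples. Both RNAs were depleted of rRNAs and made into strand-specific libraries. Each condition has 1 sample, so that no difference has a replicate check and no test between the conditions was possible. The line or strain and the reagent used for extraction differ together with the cell type, and their parts in a difference cannot be told apart.

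In a bHLH factor, the basic region contacts DNA at a short motif named the E-box (CANNTG) and the helices pair it with a partner, in most cases an E protein. Id proteins also bind E proteins, but lack the basic region and thereby keep the pair off DNA. Neurogenins and *Atoh1* act early, in dividing progenitors, and start neuronal differentiation, which NeuroD factors then carry on. *Olig2* marks ventral progenitors of motor neurons and oligodendrocytes.

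The feature shared by the 9 genes is shown first, since it separates the families before any level is considered. The coding sequences of the annotation were translated and aligned. They share a block of 41 residues without gaps, of which 14 are the same in all 9. A stretch of 60 bases (20 codons) of this block is printed below, from the basic region into the first helix, 5′ to 3′ on the coding strand. Capitals mark the codons of the 12 residues that are identical in all 9 genes.
Neurog1: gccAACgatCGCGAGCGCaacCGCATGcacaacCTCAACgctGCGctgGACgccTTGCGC
Neurog2: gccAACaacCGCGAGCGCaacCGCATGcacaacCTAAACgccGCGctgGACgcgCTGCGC
Neurog3: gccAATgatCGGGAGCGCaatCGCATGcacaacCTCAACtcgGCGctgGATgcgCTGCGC
Neurod1: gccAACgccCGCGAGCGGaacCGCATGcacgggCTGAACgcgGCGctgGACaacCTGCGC
Neurod4: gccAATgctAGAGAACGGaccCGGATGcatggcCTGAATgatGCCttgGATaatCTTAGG
Atoh1: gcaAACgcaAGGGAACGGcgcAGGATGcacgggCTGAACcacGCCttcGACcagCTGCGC
Olig1: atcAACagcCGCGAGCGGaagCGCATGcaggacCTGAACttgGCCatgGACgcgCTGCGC
Olig2: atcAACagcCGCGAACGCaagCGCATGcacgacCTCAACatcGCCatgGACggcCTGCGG
Olig3: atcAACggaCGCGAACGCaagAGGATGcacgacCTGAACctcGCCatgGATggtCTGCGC
The printed stretches lie in coding exons of NCBIM37, *Neurog1* at chr13:56352943-56353002, *Neurog2* at chr3:127336995-127337054, *Neurog3* at chr10:61596472-61596531, *Neurod1* at chr2:79294820-79294879, *Neurod4* at chr10:129708127-129708186, *Atoh1* at chr6:64679797-64679856, *Olig1* at chr16:91270416-91270475, *Olig2* at chr16:91226981-91227040 and *Olig3* at chr10:19076699-19076758, with *Neurog1*, *Neurod1* and *Neurod4* on the minus strand and the others on the plus strand. Over the 41 residues, *Olig2* and *Olig3* were the closest pair with 85.4% identity, followed by *Neurod1* and *Neurod4* with 82.9% and *Neurog1* and *Neurog3* with 78.0%. *Neurog2* had 63.4% identity with each of the other neurogenins. Most of these differences lie outside the printed stretch, in which the neurogenins differ little. Of the 14 residues that are the same in all 9 genes, 12 lie in that stretch, so the rest of the block is less conserved. Between an Olig gene and any of the others the identity was 39.0% to 46.3%, below the lowest value among the Olig genes (61.0%) and among the other 6 genes (48.8%). The border between the Olig genes and the others can be read from the printed stretches, where the Olig genes open with the codon atc and the others with gcc or gca. Despite this likeness, no stretch of 50 bases in the transcripts of any of the 9 genes was found in the protein-coding transcripts of another gene.

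**Figure D1:**
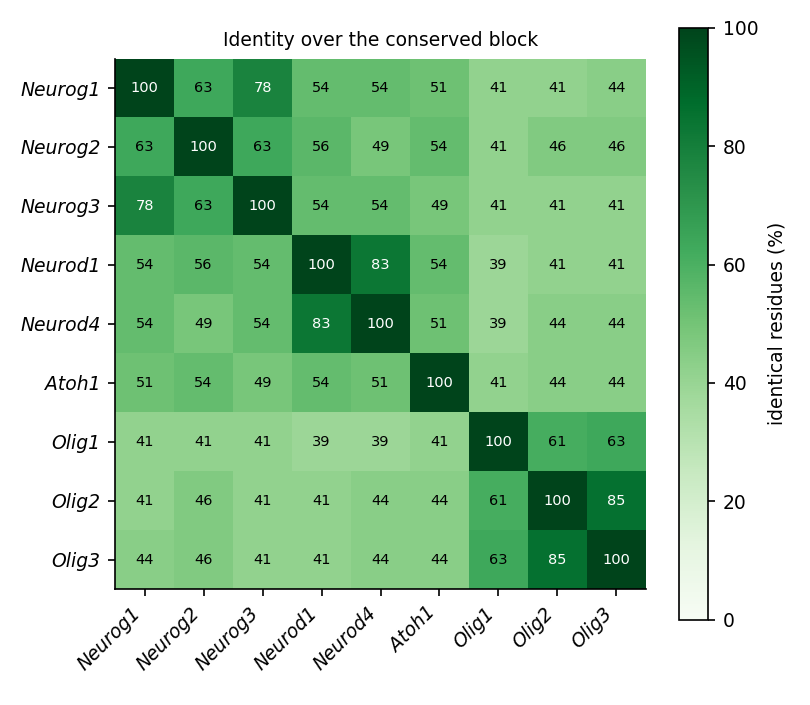
Identity between the translated sequences of the 9 genes over the shared block of 41 residues, in percent of residues, with genes on both axes and darker green for higher identity. The 3 Olig genes form a block of their own (61.0% to 85.4%), and values between Olig genes and the others stay at or below 46.3%.

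The deposited unit is RPKM, a level per length of exon, so that levels can be compared between genes. Low values fell mostly on whole multiples of a step that was taken as 1 read, as did those of all 9 genes, which gave a total over all genes of 42780173 reads for ES cells and 59783297 for the forebrain. Intervals given here are exact Poisson 95% intervals on these inferred reads and cover counting error only. Markers went with the labels. All 7 ES cell markers, *Pou5f1* and *Nanog* among them, were at least 4-fold higher in ES cells, and all 7 forebrain markers, *Lhx2* and *Emx2* among them, were at least 4-fold higher in the forebrain. The forebrain sample also held RNA of blood, mesenchyme and endothelium. The summed RPKM of 4 blood markers was 280.83 in ES cells and 673073 in the forebrain, and that of 3 mesenchyme markers was 34.28 and 4992. Of 3 endothelium markers, *Cdh5* (1.53 and 325.7) and *Kdr* (24.99 and 601.26) were at least 4-fold higher in the forebrain, whereas *Pecam1* had 551.14 in ES cells and 316.51 in the forebrain. The part of these cells in the levels of the 9 genes was not tested. In bulk samples, fewer cells of a type and less RNA per cell cannot be told apart.

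ES cells held almost no RNA of the 9 genes. Their summed RPKM was 26.11 in ES cells, from 46 reads, and 956.28 in the forebrain, from 2724 reads, which is 36.6 times as much. In ES cells 8 of the 9 were above 0, but only 5 had at least 3 reads, and none was above the median of all listed genes (RPKM of 48.94). In the forebrain all 9 were above 0, 8 had at least 3 reads and 6 were above the median of all listed genes (62.37). The median RPKM of the 9 genes was 1.69 in ES cells and 78.03 in the forebrain.

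**Figure D2:**
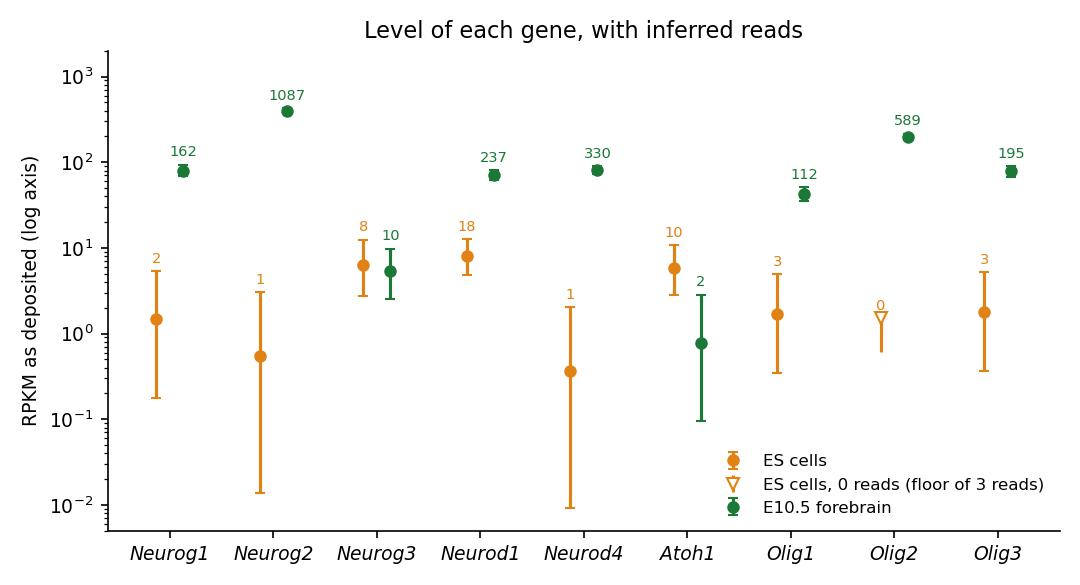
RPKM as deposited (log axis) of each of the 9 genes in the ES cell sample (orange) and the E10.5 forebrain sample (green). Bars are exact Poisson 95% intervals, numbers are inferred reads and the open triangle is the floor of 3 reads (RPKM of 1.50) for *Olig2*, which had none. The samples are apart for 7 genes, which are higher in the forebrain, and overlap for *Neurog3* and barely for *Atoh1*.

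A gene was called when it differed by at least 4-fold, that is by at least 2 on the scale of log2(RPKM + 1), which understates the change of low genes. By this rule 7 of the 9 genes (77.8%) were called higher in the forebrain, where 14.4% of all listed genes were called in that direction. None of the 9 was called higher in ES cells, against 11.3% of all listed genes. *Neurog3* and *Atoh1* were not called. With inferred reads per kb scaled to each library's depth and a pseudocount of 1 on that scale, which equals a deposited RPKM of 52.2 and 49.0, the count called higher in the forebrain fell to 2 (*Neurog2* and *Olig2*), and the share of all listed genes called in that direction fell to 3.56%. The median difference of the 9 genes was 4.82 on the log2 scale, also with *Olig2* at its bound against 3 reads, against 0.01 over all listed genes and 0.17 over the 19620 protein-coding ones. Among protein-coding genes alone, 15.6% were called higher in the forebrain and 8.93% in ES cells. Counts of calls within the gene lists and neighbours below are to be read against these shares.

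**Figure D3:**
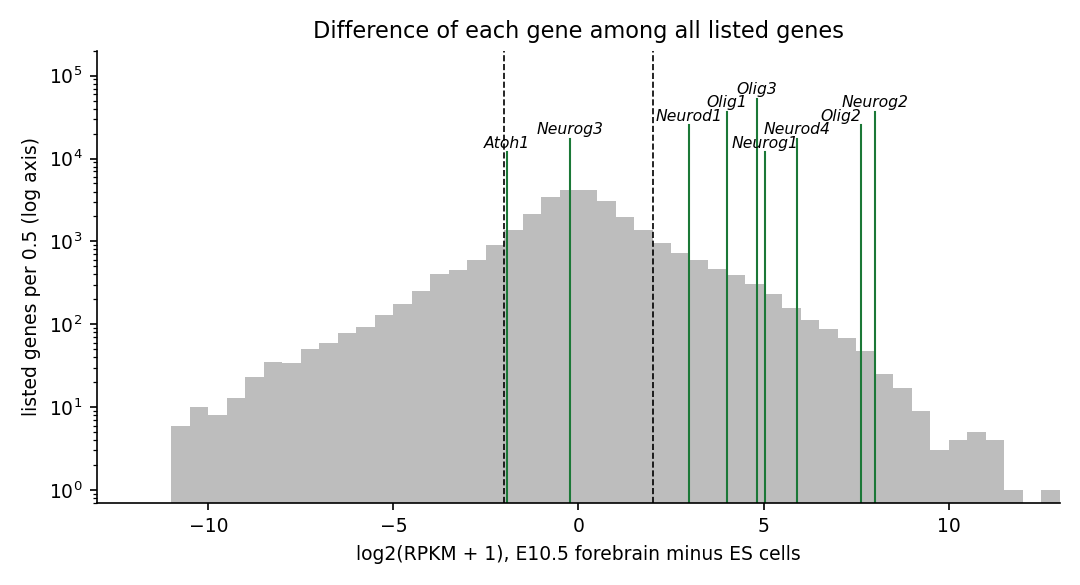
Number of listed genes (log axis) in bins of 0.5 by their difference between the samples on log2(RPKM + 1), with positive values for higher levels in the forebrain. Green lines place the 9 genes and dashed lines mark 4-fold in each direction. The 7 called genes lie between 2.99 and 8.02, *Neurog3* lies at -0.22 and *Atoh1* at -1.94, just inside the line.

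Among the neurogenins, *Neurog2* had the highest level in the forebrain. In ES cells its value was the lowest of the 3, within the counting error of that of *Neurog1*. This gene commits dorsal progenitors of the forebrain to glutamatergic neurons and lies at chr3:127336054-127338549 on the plus strand of NCBIM37, with 2226 bp of exon. Its RPKM was 0.55 in ES cells, from 1 read (interval 0.014 to 3.06), and 399.98 in the forebrain, from 1087 reads (377 to 424). The ratio was 729, with an interval of 131 to 28830 that reflects the single read in ES cells. *Neurog2* alone made up 41.8% of the summed RPKM of the 9 genes in the forebrain. *Neurog1* (chr13:56351866-56353524, minus strand), which acts in the same progenitors and in cranial sensory ganglia, had an RPKM of 1.47 in ES cells, from 2 reads (0.18 to 5.32), and 79.98 in the forebrain, from 162 reads (68.1 to 93.3). Its ratio was 54.3 (14.8 to 453). Both genes were thus near the limit of detection in ES cells, and in the forebrain *Neurog2* stood above *Neurog1* in level per length, with a ratio between 4.24 and 5.94 by its interval.

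*Neurog3*, the neurogenin of the endocrine pancreas and gut, did not follow. At chr10:61595838-61597511 on the plus strand, it had an RPKM of 6.34 in ES cells, from 8 reads (2.74 to 12.5), and 5.32 in the forebrain, from 10 reads (2.55 to 9.78). The ratio of 0.839 had an interval of 0.298 to 2.45, which includes 1. On the log2 scale its difference was -0.22, and it turned to 0.02 when each sample was scaled by its sum. No direction can therefore be given for this gene. Of 4 listed markers of the endocrine pancreas and gut, *Pdx1* and *Gcg* were at 0 in the forebrain and had an RPKM of 1.41 and 0.82 in ES cells. *Ins1*, *Ins2* and *Pax4* were not analysed here. *Neurog3* shares 273 bp with exons of *2010107G23Rik* on the opposite strand, and *2010107G23Rik* was higher in both samples (RPKM of 56.72 in ES cells and 136.01 in the forebrain). It is not stated whether the counting used strand, and the part of this overlap was not tested.

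Both NeuroD genes were called higher in the forebrain, from unequal starting levels. *Neurod1* (chr2:79292678-79296908, minus strand), a driver of neuronal differentiation that is also active in pancreatic beta cells, had the highest level of the 9 genes in ES cells. Its RPKM was 8.05 there, from 18 reads (4.77 to 12.7), and 71.13 in the forebrain, from 237 reads (62.4 to 80.8). The ratio of 8.83 (5.47 to 15.2) was the lowest among the 7 called genes. *Neurod4* (chr10:129705209-129717296, minus strand), which acts with neurogenins in early neurons and in the retina, was represented in ES cells by 1 read, an RPKM of 0.37 (0.0092 to 2.03). In the forebrain it reached 80.83, from 330 reads (72.3 to 90.0), and the ratio was 221 (39.5 to 8771). The intervals of the ratios of *Neurod1* and *Neurod4* did not overlap, whereas their levels in the forebrain did. Other genes share exons with *Neurod1*, namely 201 bp with *Cerkl* on the same strand and 154 bp with the lincRNA *Gm17325* on the opposite strand. *Cerkl* had an RPKM of 10.78 in ES cells and 16.67 in the forebrain, and *Gm17325* had 1.84 and 12.95. Reads in the shared bases could have been given to either gene, and the part of this in *Neurod1* was not tested.

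*Atoh1*, the factor of cerebellar granule neurons and of hair cells of the inner ear, was the only one of the 9 genes with a ratio below 1 whose interval did not include 1. At chr6:64679140-64681227 on the plus strand, it had an RPKM of 5.85 in ES cells, from 10 reads (2.80 to 10.8), and 0.78 in the forebrain, from 2 reads (0.095 to 2.83). The level in ES cells was 7.45 times that in the forebrain, with an interval of 1.59 to 70.0. Its difference of -1.94 on the log2 scale missed the call by little, and with a pseudocount of 0.1 in place of 1 it was -2.76 and passed. Of 7 markers of midbrain, hindbrain and rhombic lip, the last of which is the main source of *Atoh1* cells in the embryo, 2 were called higher in the forebrain (*Lmx1a* and *Lhx9*), 2 in ES cells (*Gbx2* and *Hoxa2*) and 3 were not called. Their summed RPKM was 524.25 in ES cells and 308.43 in the forebrain. *Gbx2* alone had 459.98 in ES cells and 8.98 in the forebrain, and the sums of the other 6 markers ran the other way, with 64.27 and 299.45. *Hoxa2* was at 0 in the forebrain and *Lhx9* at 0 in ES cells.

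All 3 Olig genes were called higher in the forebrain, with *Olig2* at the highest level. *Olig2* (chr16:91225795-91228922, plus strand) had no read in ES cells, which allows an RPKM of up to 1.50 at a floor of 3 reads. In the forebrain its RPKM was 197.97, from 589 reads (182 to 215), at least 132-fold higher. *Olig1* starts 41.1 kb past the end of *Olig2* on the same strand, at chr16:91270014-91272184, and takes part in oligodendrocyte maturation. Its RPKM was 1.69 in ES cells, from 3 reads (0.35 to 4.93), and 42.26 in the forebrain, from 112 reads (34.8 to 50.8), with a ratio of 25.0 (8.35 to 123). These neighbours were thus both near the floor in ES cells, and in the forebrain their intervals were far apart. *Olig3* (chr10:19076366-19078412, plus strand), which marks progenitors of the dorsal hindbrain, dorsal spinal cord and thalamus, had an RPKM of 1.79 in ES cells, from 3 reads (0.37 to 5.23). It reached 78.03 in the forebrain, from 195 reads (67.5 to 89.8), with a ratio of 43.6 (14.7 to 213).

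The order of levels per length was better resolved in the forebrain, where the interval of the ratio excluded 1 for 30 of the 36 pairs of genes, than in ES cells, where it did so for 12 of 36. In the forebrain *Neurog2* stood first, 2.02 times above *Olig2* (interval 1.83 to 2.24), and *Olig2* was 2.45 times above *Neurod4* (2.14 to 2.81). *Neurod4*, *Neurog1*, *Olig3* and *Neurod1* followed with ratios between neighbours of 1.01, 1.03 and 1.10, whose intervals all include 1. *Neurod1* was 1.68 times above *Olig1* (1.34 to 2.13), *Olig1* 7.94 times above *Neurog3* (4.16 to 17.0) and *Neurog3* 6.78 times above *Atoh1* (1.44 to 63.6). In ES cells the order was *Neurod1*, *Neurog3*, *Atoh1*, *Olig3*, *Olig1*, *Neurog1*, *Neurog2*, *Neurod4* and *Olig2*, and no interval between neighbours excluded 1. Genes farther apart in this order did separate. *Neurod1* lay above all 6 genes from *Olig3* downward, for example 4.50 times above *Olig3* (1.31 to 23.9), and *Neurog3* and *Atoh1* each lay above *Neurog2*, *Neurod4* and *Olig2*. *Neurog3* and *Atoh1*, next to *Neurod1* at the head of this order, were the lowest in the forebrain. By family, neurogenins made up 50.7% of the summed RPKM of the 9 genes in the forebrain, Olig genes 33.3% and NeuroD genes 15.9%. In ES cells these shares were 32.0%, 13.3% and 32.2%, and *Neurod1* alone gave 30.8%.

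**Figure D4:**
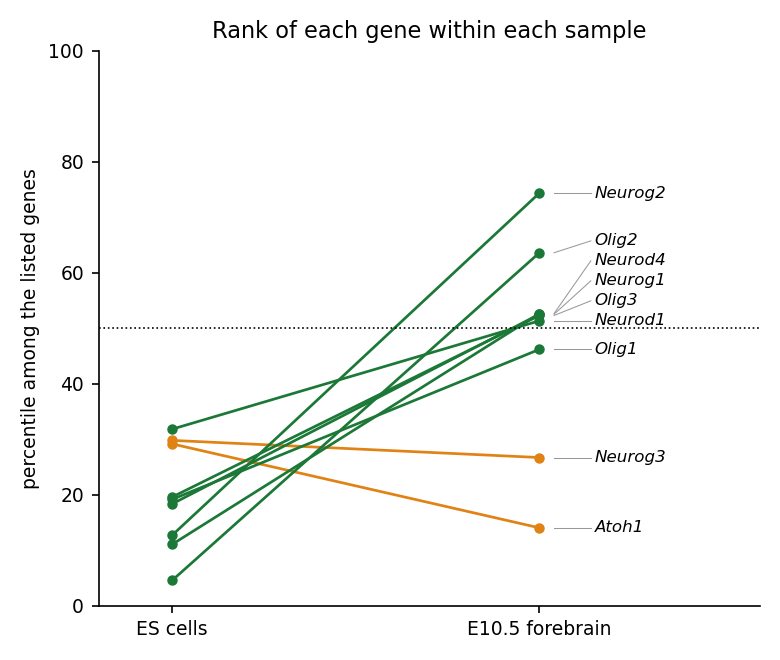
Percentile of each of the 9 genes among the 29311 listed genes in each sample, with lines joining the values of a gene, green where the percentile is higher in the forebrain and orange where it is lower. The dotted line is the median. *Neurog2* goes from the 12.7 to the 74.4 percentile and *Olig2* from 4.55 to 63.6, whereas *Atoh1* goes from 29.2 to 14.0.

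Ranks within each sample do not depend on the scaling between samples. In ES cells the 9 genes lay between the 4.55 and the 31.8 percentile of the listed genes. In the forebrain *Neurog2* reached the 74.4 and *Olig2* the 63.6 percentile. *Neurod4*, *Neurog1*, *Olig3* and *Neurod1* lay close together, between 51.3 and 52.6, and *Olig1* lay at 46.2. *Neurog3* was at 29.8 in ES cells and 26.7 in the forebrain. *Neurog2*, the leading gene, thus ranked 7517 of 29311 in the forebrain.

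The promoters of 8 of the 9 genes were matched in RefSeq (GRCm38.p6), with 9 promoters, since *Neurod4* has a pair of starts. The stretches of this pair overlap and are counted separately. *Olig1* was not matched. The 250 bases before the start were placed on NCBIM37 by exact match. Those of *Neurog2* and *Olig2* are shown as the genes with the highest levels in the forebrain. That of *Atoh1*, which was not called, is shown because its ratio was below 1 with an interval that excluded 1. Capitals mark matches to the E-box (CANNTG), which reads the same on both strands, to TATAAA on the printed strand, or to CCAAT on either strand. CCAAT reads ATTGG on the other strand.
Neurog2: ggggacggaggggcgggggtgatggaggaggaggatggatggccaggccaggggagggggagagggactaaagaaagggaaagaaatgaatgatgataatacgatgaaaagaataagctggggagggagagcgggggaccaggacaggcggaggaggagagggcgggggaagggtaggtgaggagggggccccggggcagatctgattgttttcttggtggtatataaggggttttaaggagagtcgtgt
Olig2: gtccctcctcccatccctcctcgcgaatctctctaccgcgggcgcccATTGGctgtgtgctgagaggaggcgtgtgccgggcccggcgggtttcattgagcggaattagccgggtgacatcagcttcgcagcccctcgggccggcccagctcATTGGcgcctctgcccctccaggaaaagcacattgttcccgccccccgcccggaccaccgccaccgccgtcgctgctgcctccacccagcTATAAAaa
Atoh1: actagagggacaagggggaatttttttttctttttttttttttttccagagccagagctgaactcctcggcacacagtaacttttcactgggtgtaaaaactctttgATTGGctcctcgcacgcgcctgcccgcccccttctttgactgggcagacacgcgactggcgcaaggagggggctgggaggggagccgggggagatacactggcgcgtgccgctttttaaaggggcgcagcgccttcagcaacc
The *Neurog2* stretch lies at chr3:127335804-127336053, that of *Olig2* at chr16:91225545-91225794 and that of *Atoh1* at chr6:64678869-64679118, all on the plus strand. None of these 3 held the letters of an E-box. Over all 9 promoters, 3 held an E-box (*Neurog3* with CAGCTG, *Neurod1* with CATATG and *Olig3* with CAACTG), whereas 66.2% of 32851 promoters of the same length did. TATAAA, sought on the strand of the gene only, was found in those of *Olig2* and *Olig3*, against 7.59% of all promoters. CCAAT was found in 5 of the 9, against 33.9%. The G and C content ranged from 51.2% to 71.2% with a median of 58.0%, against 52.4% over all promoters. CpG dinucleotides were at a median of 0.713 of the number given by base composition, against 0.374 over all promoters, and 7 of the 9 promoters were above that median. The called and the uncalled genes did not separate by these features. A match is a match of letters only.

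bHLH factors depend on their partners and inhibitors, and these were measured in the same samples. The 3 E proteins that pair with the 9 factors were present in both. *Tcf12* had an RPKM of 301.26 in ES cells and 4158.55 in the forebrain, *Tcf3* had 541.37 and 1917.63, and *Tcf4* had 124.88 and 505.06. *Tcf12* and *Tcf4* were called higher in the forebrain and *Tcf3*, with a difference of 1.82 on the log2 scale, was not. The lowest E protein was thus above *Neurog2*, the highest of the 9 genes, in the forebrain (505.06 against 399.98). All 4 Id genes were also above *Neurog2* in the forebrain, with RPKM from 995.97 to 3709.91. *Id2* (69.21 in ES cells and 1760.08 in the forebrain) and *Id4* (128.34 and 2435.81) were called, whereas *Id1* and *Id3* were not. *Id3* had an RPKM of 1687.81 in ES cells already. These are levels of RNA, not protein, in bulk samples. Whether E protein and Id RNA lay in the same cells as that of the 9 genes was not tested.

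Hes and Hey factors are repressors that counter proneural genes, in part downstream of Notch. Of 7 listed, 4 were called higher in the forebrain and none in ES cells, with a median difference of 3.10. *Hes5*, the Notch target of neural progenitors, had an RPKM of 3.58 in ES cells and 1198.59 in the forebrain. *Hes1* was not called, with 641.3 and 819.89. *Hes6*, which counters *Hes1* and promotes neuronal differentiation, had 341.68 and 1368.85 and missed the call at a difference of 1.999.

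Of 13 other bHLH genes of neuronal type, 6 were called higher in the forebrain, 1 in ES cells and 6 in neither, with a median difference of 1.79. Of all listed genes, 14.4% were called higher in the forebrain and 11.3% in ES cells. *Nhlh2*, a gene of newly formed neurons, had an RPKM of 0.73 in ES cells and 290.5 in the forebrain. *Atoh8* had 2.07 in ES cells and 87.3 in the forebrain. *Ascl2*, a gene of the trophoblast and of intestinal stem cells, was the one called in the other direction, with 72.71 in ES cells and 6.61 in the forebrain. *Neurod2* and *Neurod6*, which follow *Neurod1* in maturing neurons and were named after their values were seen, had only 7 and 4 reads in the forebrain.

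Genes known to lie downstream of neurogenins and NeuroD were mostly called in the direction of the 7 genes. Of 14 listed, 10 were called higher in the forebrain, 1 in ES cells and 3 in neither, with a median difference of 3.58. *Tubb3*, a tubulin of neurons, had an RPKM of 795.19 in ES cells and 3318.34 in the forebrain. *Stmn2*, a stathmin of growing axons, was called higher in ES cells, with 6910.29 there and 1056.31 in the forebrain. *Btg2*, an antiproliferative gene of neurogenic progenitors, was not called, with 613.33 and 845.22. *Dll1*, the Notch ligand induced by proneural factors, had 10.42 and 781.81, and *Dcx*, a microtubule protein of migrating neurons, had 0.19 and 253.17. *Dll1* and *Dcx* were named after their values were seen.

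The genes of the oligodendrocyte lineage were mixed. Of 15 listed, 6 were called higher in the forebrain, 3 in ES cells and 6 in neither, with a median difference of 1.01. The shares over all listed genes were 14.4% and 11.3%. *Pdgfra*, a receptor of oligodendrocyte precursors that mesenchyme also carries, had an RPKM of 7.25 in ES cells and 1795.6 in the forebrain, where the mesenchyme markers were high as well. The part of mesenchyme in the level of *Pdgfra* was not tested. *Nkx6-2* (491.29 in ES cells and 103.57 in the forebrain) and the myelin genes *Mog* (236.13 and 31.3) and *Mobp* (40.87 and 7.82) were called in the other direction. *Cnp*, another myelin gene, was not called, with 304.63 and 216.76. *Sox10*, which marks oligodendrocyte precursors and neural crest and was named after its value was seen, had 9.9 and 20.68 and was not called. *Olig2*, at 197.97 in the forebrain, was thus well above *Sox10* in level per length.

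The genes of ventral patterning, which act upstream of *Olig2*, were lower in ES cells than in the forebrain in 6 of 6 cases. Of these, 4 were called higher in the forebrain and none in ES cells, with a median difference of 2.92. *Shh*, the ventral signal, was at 0 in ES cells and at an RPKM of 164.91 in the forebrain, at least 121-fold higher. *Ptch1*, its receptor and target, had 133.11 and 625.78. *Gli1*, another target, had 45.68 and 146.73 and was not called.

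**Figure D5:**
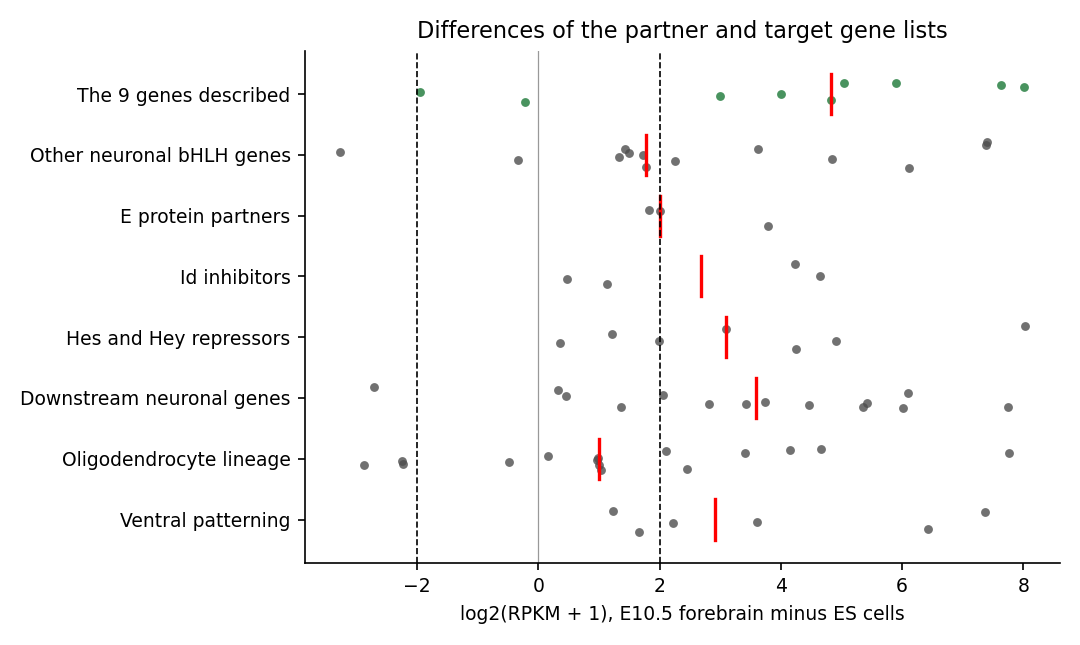
Difference between the samples on log2(RPKM + 1), positive for higher levels in the forebrain, of the 9 genes (green) and of the genes of 7 lists of partners and targets (grey), 1 point per gene with vertical scatter for display only. Red bars are medians and dashed lines mark 4-fold. Medians run from 1.01 for the oligodendrocyte lineage to 3.58 for downstream neuronal genes, below the 4.82 of the 9 genes.

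Some of the 9 genes also act in cranial ganglia and placodes, which lie next to the forebrain. Of 6 markers of these, 3 were called higher in the forebrain (*Eya2* and *Isl1* among them), 1 in ES cells (*Prph*) and 2 in neither. Their summed RPKM was 182.39 in ES cells and 1063.49 in the forebrain. The part of such cells in *Neurog1* and *Neurod1* was not tested.

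The nearest protein-coding genes on each side were examined to see whether the called genes lie in regions called as a whole. Of 18 such positions, 2 were held by *Olig1* and *Olig2* for each other and 2, both beside *Neurod4*, by *Olfr827* and *5830405N20Rik*, which were not analysed here. Of the other 14 neighbours, 4 were called higher in the forebrain and none in ES cells, with a median difference of 1.65. The called ones were *Tifab* (RPKM of 1.05 in ES cells and 17.09 in the forebrain) beside *Neurog1*, *Alpk1* (0.36 and 47.25) beside *Neurog2*, *Itga4* (3.99 and 249.96) beside *Neurod1* and *Ifngr1* (37.95 and 359.77) beside *Olig3*. On the other side of *Olig2*, at 54.1 kb, *Gm9881* had 0.76 and 1.02 and was not called, nor was *Ifnar2* past *Olig1* (79.87 and 233.46). *Smarcad1*, a neighbour of *Atoh1*, was not called either.

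The genes most like *Neurog2* were sought among all protein-coding genes by their distance on log2(RPKM + 1) over the 2 samples. They were *Six2*, with an RPKM of 0.58 in ES cells and 410.13 in the forebrain (distance of 0.045), *Frzb* with 0.38 and 387.66 (0.174) and *Hapln1* with 0.72 and 427.21 (0.178). A likeness over 2 samples only says that the pairs of values are close.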

How the data were processed

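RNA-seq of 1 sample of E14 ES cells and 1 of forebrain at E10.5 used rRNA-depleted, strand-specific, single-end libraries. The methods give reads of 50 bp and the labels 100 bp. Reads were mapped by the authors against NCBIM37 (mm9) through HTSstation, and an RPKM value per gene was deposited. Bowtie 0.12.7 is named in the submitters' processing notes, and the scaling between samples is not given in the sources used here. Both tables list the same 29311 genes, none at 0 in both samples, and were used without further normalization.

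Exonic lengths came from an annotation of the same build with 37310 genes. RPKM times length in kb was found to fall on multiples of 1.22 in ES cells and 0.819 in the forebrain, and this step was taken as 1 read. Of low genes, 59.8% of 7520 and 61.7% of 7262 lay within 0.05 of a whole number, and all 9 genes within 0.014. The values carry another scaling than the usual RPKM, of which 1 unit corresponds to a deposited value of 52.2 and 49.0. For the 9 genes, 3 reads give a value of 1.10 to 2.38 in ES cells and 0.735 to 1.60 in the forebrain.

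Differences were taken on log2(RPKM + 1). Ratios of RPKM carry exact Clopper-Pearson 95% intervals of the share of reads. A gene with 0 reads gave a bound against a floor of 3 reads per library, and a gene with 1 to 3 reads kept its interval, where the design had set a bound under 3 reads. With 1 sample per condition, a call means at least 4-fold, read against all listed genes. Genes were named by a rule: the 9 genes, the 3 highest of each list and those called against its median, neighbours and overlapping genes, and the 3 genes nearest to the highest one. Exceptions are marked. Some genes that meet the rule are not reported here. The genes and lists were chosen with earlier results of these data known. The step search and the intervals were tested on simulated data. Alternatives covered pseudocounts, scaling, filters and denominators. Translated coding sequences were aligned with mafft 7.526. Computations used Python 3.11.15 with scipy 1.17.1, numpy 2.4.6 and pandas 2.3.3, and figures used matplotlib 3.10.9.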

Additional observations from a re-analysis of the deposited data

How the results depend on the processing

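Of 119 alternatives, 75 left a value within its error or a count within 1.5 times and 44 moved it. A turned direction could be scored only for the ratios of the 7 called genes and for the median, not for counts or percentiles. None of these turned, which a change of pseudocount alone could not have done. The uncalled *Neurog3* went from -0.22 to 0.02 with scaling by the sum. The count of genes called higher in ES cells was 1 (*Atoh1*) with a pseudocount of 0.1 RPKM, with scaling by the upper quartile and, added after seeing the data, with a threshold of 2-fold, where 16.4%, 11.9% and 23.3% of all listed genes were called. Taken as inferred reads per kb scaled to each library's depth, with a pseudocount of 1, the count called higher in the forebrain was 2, against 3.56% of all listed genes, and the median difference 1.33. This pseudocount equals a deposited RPKM of 52.2 and 49.0. With one of 0.02, added after seeing the data, 7 genes were called again, against 15.1% of all listed genes, and the median was 4.89. At a threshold of 16-fold, also added later, 6 were called higher in the forebrain, against 5.03% of all listed genes. Genes detected in ES cells were 5 at 3 reads or more. Scaling by the sum moved the median of all listed genes to 0.26. Percentiles moved in 24 of 36 alternatives, because the set of genes they refer to changed. No paired analysis was possible because each condition has 1 sample, and for the same reason no replicate could be left out. Depth limits the ratios of *Neurog1*, *Neurog2*, *Neurod4*, *Olig1*, *Olig2* and *Olig3*, which rest on 0 to 3 reads in ES cells. It also limits that of *Atoh1*, which rests on 2 reads in the forebrain.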

Other observations

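Other bHLH genes were placed beside the 9 genes, with lists chosen after the data were seen. The 3 bHLH genes of blood (*Tal1*, *Lyl1* and *Tal2*) were all at least 4-fold higher in the forebrain, with a summed RPKM of 9.16 in ES cells and 623.62 in the forebrain. *Tal1*, which starts the blood lineage, had 1.12 and 303.49, and *Tal2*, which is also active in midbrain neurons, had 3.29 and 249.37, so that both were above *Olig2* in level per length in the forebrain.

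Of 9 bHLH genes of mesoderm, heart and mesenchyme, *Twist1* (RPKM of 12.84 in ES cells and 1556.07 in the forebrain) and *Twist2* (1.84 and 184.28) were called higher in the forebrain, *Tcf15* (509.53 and 40.12) was called higher in ES cells and 6 were not called. *Tcf15*, a gene of paraxial mesoderm, thus had a level in ES cells far above that of any of the 9 genes there. Of the 4 bHLH genes of skeletal muscle, *Myf5* was called higher in the forebrain, with an RPKM of 1.17 from 2 reads and 10.62 from 27 reads, and the other 3 had at most 7 reads in either sample. *Twist1* in the forebrain was above *Neurog2* (1556.07 against 399.98).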
